A study of Mus musculus with 8 samples.

Results

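The 32 genes described here code for the enzymes, carriers and regulators of fatty acid oxidation in mitochondria and peroxisomes. They were listed by gene name, with earlier results of these data known, and 31 of them had a row among the 19673 genes of the normalized expression table. The expression of Ppara was not analysed here, and it enters only the search of promoters. The RNA came from CD3e+CD8+ T cells sorted out of Py8119 tumours, a line that derives from a mouse mammary carcinoma. The KO group came from tumours grown in Mtdh KO mice and the WT group from tumours grown in WT mice, with 4 libraries in each group that the submitters call biological replicates. Both groups carried the same tumour line, so only the host genotype differed by label. The strain, age and sex of the hosts, the deleted part of Mtdh and the cells in which it was deleted are not given in the sources used here. The comparison of KO with WT asks how host Mtdh, which codes for metadherin, bears on the RNA of T cells inside the tumour. The series title also names lipid metabolism of the liver, which was not analysed here.

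Fatty acids are first joined to coenzyme A, and long chains enter mitochondria through the carnitine shuttle, whose first enzyme sets the pace of the pathway. Inside, a cycle of dehydrogenation, hydration, a second dehydrogenation and thiolysis shortens the chain and passes electrons to the respiratory chain, while peroxisomes begin the work on very long and branched chains. Memory CD8 T cells and tissue macrophages are known to use this pathway, and the PPAR nuclear receptors with the coactivator encoded by Ppargc1a switch its genes on in liver, muscle and fat.

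PPAR receptors bind pairs of the core site AGGTCA, so the promoters of the members were searched for it. RefSeq windows on GRCm38.p6, each from 250 bases before to 50 bases after an annotated start, were used for 28 of the 32 genes. These were 29 windows in all because Acsl1 has 2. No window of Acaa2, Cpt1b, Crat or Decr1 was used, so the counts for members do not cover these genes. Windows on the chromosome of Acaa2 were left out for the members only, and not for the sets of all genes and of protein-coding genes. The core site occurred on either strand in 4 of the 29 windows, or 13.8%, against 16.3% of 32851 windows of all genes and 14.7% of 21263 windows of protein-coding genes. No window of a member held 2 core sites in direct repeat with 1 base between them (AGGTCANAGGTCA), and 13 of the 32851 windows did. Windows with this repeat are also among those counted above for the core site. The 4 matches are shown because they are the places in these windows where a receptor of this family could be looked for. Each is read 5′ to 3′ on the strand of its gene, with the core site or its reverse complement in capitals. It begins 94 bases before the start in Cpt1a (chr19:3323195-3323224, plus strand), 249 in Acadm (chr3:153944875-153944893, minus strand), 87 in Acadvl (chr11:70015498-70015527, minus strand) and 83 in Echs1 (chr7:140116487-140116516, minus strand).
Cpt1a: cagtttccttacTGACCTcctccccgcagc
Acadm: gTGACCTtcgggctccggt
Acadvl: atggatcaccctAGGTCAggtagaatacag
Echs1: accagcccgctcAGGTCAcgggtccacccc
The members' windows were rich in the dinucleotide CG, with a median of 17 per window against 13 in windows of protein-coding genes and 7 in all windows.

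Values are read counts per gene that the authors divided by a size factor for each library, and they are called normalized values below. Libraries held an estimated 16446399 to 29557869 reads each, small RNAs included. The distinct cDNA fragments behind them, small RNAs left out, were estimated at far fewer, 123216 to 586403 per library. This estimate takes each undetected gene as a loss of sampling, so differences in expression between libraries would also lower it. Copies among the reads were not measured. By this estimate, a single fragment was worth a normalized value of 25.4 in WT library 3, with the most fragments, and of 139 in KO library 2, with the fewest. Mtdh had a log2 fold change of -1.23 in KO against WT (SE 0.25, limma adjusted p = 0.0400), with all 4 KO values (2538 to 5118) below all 4 WT values (6407 to 12745). That call ended in 5 of the 8 omissions of a single library, as listed with the other settings. The 12 CD8 T cell markers summed to 24033 to 51017 in KO and 8898 to 31713 in WT, with Cd8a at 1565 in WT library 2 and at 5712 to 13355 in the other libraries. The 16 macrophage and monocyte markers, of which none was at 0 in any library, summed to 118477 to 256983 in KO and 198537 to 310729 in WT, although the sort was for T cells.

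No fatty acid oxidation gene passed the threshold. Of the 31 with a row, 29 had a mean normalized value of at least 10 over the 8 libraries and were tested, and 0 of the 29 had a limma adjusted p below 0.05, against 0.236% of the 16120 genes tested (0.211% higher and 0.0248% lower in KO). The smallest adjusted p among them was 0.750. At an unadjusted p below 0.05 the count was also 0, against 6.7% of all genes (3.21% higher and 3.49% lower in KO). That count depended on the setting, still with 0 past the adjusted threshold. It was 2 without KO library 1, both negative, beside 1321 of all 16024 genes. Without KO library 3 it was 1 positive and 2 negative, beside 1227 of all 15996 genes. A single negative member was counted without KO library 2 (972 of 16151 genes) or 4 (1055 of 16117), and with libraries scaled to equal upper quartiles (1085 of 16120). The same held with libraries scaled to equal sums without small RNAs (1122 of 16120) and with a minimum mean of 250 (669 of 7573). The count with sample weights is given with the other settings. Members with a negative log2 fold change numbered 20 of 29 (69.0%), and the same sign was found in 56.6% of all genes, with a median of -0.37 for the members and -0.12 for all genes. In 2 members, Acox3 and Decr1, every KO value lay below every WT value, a pattern met by 2.09% of all genes, and no member had all KO values above all WT values (2.02% of all genes). All 29 of the 95% intervals for the change included 0. For Hadh, Acaa2, Ucp2, Echs1 and Acadm the interval excluded a 2-fold change in both directions, and for the other 24 it left a 2-fold change possible in at least 1 direction. RNA from fewer expressing cells and less RNA per cell cannot be told apart in such bulk samples.

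**Figure D1:**
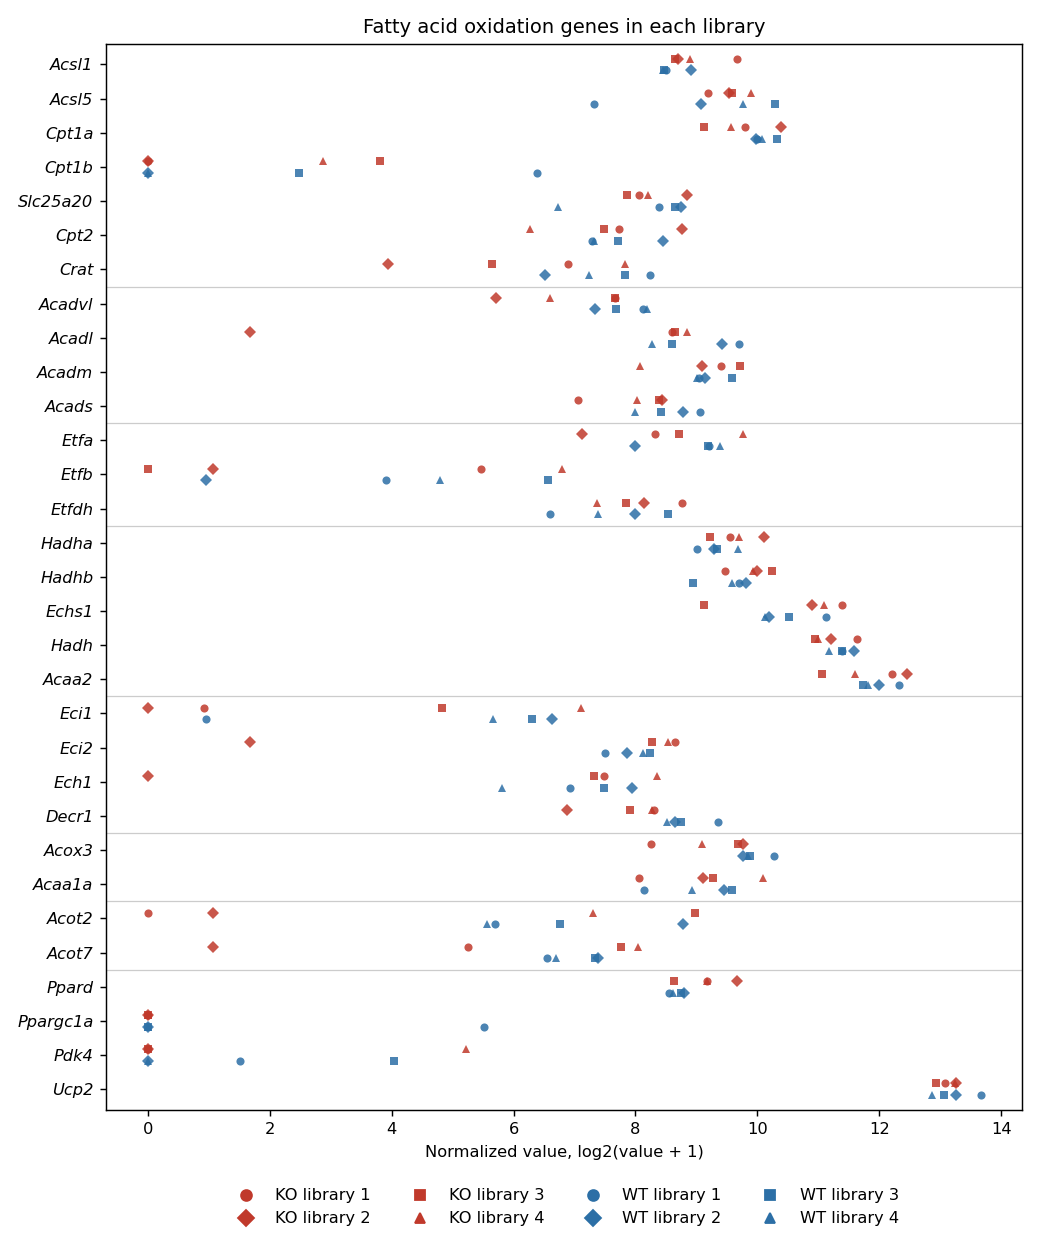
Normalized value of each of the 31 members in each library, as log2(value + 1) on the x axis, with KO libraries in red above WT libraries in blue and genes grouped by role between the grey lines. Points of the KO library 2 (red diamonds) lie at or near 0 for 10 members, among them Acadl, Eci2 and Ech1, whose other values lie together at higher levels.

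Acyl-CoA synthetases of the ACSL family activate long-chain fatty acids. Acsl1 was at 809, 413, 401 and 474 in KO libraries 1 to 4 and at 362, 478, 353 and 348 in WT libraries 1 to 4. KO library 1 stood highest and the remaining values of both groups overlapped (log2 fold change 0.40, SE 0.42). Acsl5, an isoform known from the intestine, was at 585 to 949 in KO and spread from 158 in WT library 1 to 1250.5 in WT library 3 (log2 fold change 0.44, SE 0.49; -0.16 without WT library 1). Per kilobase of transcript, Acsl5 was above Acsl1 in 6 of 8 libraries, with a ratio of 0.401 to 3.26. The reads of Acsl5 may be mixed with those of Zdhhc6, a gene on the opposite strand that shares 26430 bases of its locus.

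Cpt1a codes for the liver isoform of carnitine palmitoyltransferase 1, the entry enzyme of the shuttle (ENSMUSG00000024900, chromosome 19, 3372334 to 3435733 of mm39). It was at 889.96, 1342, 556 and 756 in KO libraries 1 to 4 and at 1019.5, 1004, 1277 and 1076 in WT libraries 1 to 4. Of the KO values, 3 lay below every WT value, and the remaining one, KO library 2, was the highest of all 8. KO values averaged 886 ± 334 and WT values 1094 ± 126 (SD, 4 libraries per group). The log2 fold change was -0.37 with a 95% interval of -1.03 to 0.28 (limma adjusted p = 0.820), or -0.60 without KO library 2 and -0.17 without KO library 3. Cpt1b, the muscle isoform, was at 0, 0, 13.0 and 6.30 in KO and at 82.8, 0, 4.56 and 0 in WT. Only WT library 1 exceeded the worth of a single fragment, and the log2 fold change of -0.55 had a 95% interval of -4.58 to 3.48. The carnitine carrier Slc25a20 was between 231 and 461 in KO libraries and between 106 and 429.6 in WT libraries (log2 fold change 0.11, SE 0.58), with WT library 4 far below the rest.

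Cpt2, which hands the acyl group back to coenzyme A inside the mitochondrion, was at 212, 436, 178 and 76.6 in KO and at 154, 348, 209 and 159 in WT. Both the highest and the lowest of its 8 values were KO values (log2 fold change -0.12, SE 0.72). Per kilobase, Cpt1a was above Cpt2 in all 8 libraries, by 1.58 to 5.43 times. Crat, carnitine acetyltransferase, which buffers acetyl-CoA, was at 118, 14.3, 49.4 and 226 in KO and at 300.5, 90.8, 225 and 149.8 in WT. Its log2 fold change was -1.37 with an SE of 1.06, and -0.66 without KO library 2, where its value was a small part of that of a fragment.

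The 4 acyl-CoA dehydrogenases, which make the first oxidation for very long, long, medium and short chains, all had negative log2 fold changes, with none past the threshold. Acadl (ENSMUSG00000026003, chromosome 1, 66869998 to 66902436) was at 388, 2.20, 400.03 and 457 in KO and at 834, 685, 386 and 307 in WT. WT libraries 1 and 2 were highest, KO library 2 was at 2 reads, and the other 5 values lay together between 307 and 457. The log2 fold change of Acadl was -2.06 (SE 1.13, 95% interval -4.41 to 0.29, limma adjusted p = 0.770), and -0.30 without KO library 2. Acadvl was at 201, 51.3, 201 and 96.3 in KO and at 278, 161, 205 and 292 in WT (log2 fold change -0.93, SE 0.77). Acads, the short-chain enzyme, was at 133, 343, 332 and 259.7 in KO and at 535, 436, 342 and 252 in WT, with overlapping groups (log2 fold change -0.59, SE 0.53). Acadm, the medium-chain enzyme, had nearly equal means, 583 ± 239.9 for KO and 593 ± 115 for WT (SD, 4 libraries per group), and its log2 fold change of -0.12 had a 95% interval of -0.97 to 0.72.

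Electrons from these enzymes pass to the flavoprotein ETF, a dimer of the Etfa and Etfb products, and on to the membrane enzyme encoded by Etfdh. Etfa was at 318, 138, 417 and 871 in KO and at 588, 254, 582 and 670.2 in WT. Its highest and lowest values were again both KO values (log2 fold change -0.47, SE 0.54; -0.01 without KO library 2). Etfb was low throughout, at 43.4, 1.10, 0 and 111 in KO and 14.0, 0.946, 93.9 and 26.8 in WT. Per kilobase, Etfa exceeded Etfb in each of the 7 libraries where Etfb was above 0, by 3.98 to 172 times, so the RNAs of the dimer's subunits were recovered at unequal levels. The highest ratios, 80.2 in KO library 2 and 172 in WT library 2, rest on Etfb values of 1.10 and 0.946, far below the worth of 1 fragment. Etfdh was between 163 and 435 in KO libraries and between 95.8 and 368 in WT libraries (log2 fold change 0.40, SE 0.65).

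Hadha and Hadhb code for the alpha and beta subunits of the mitochondrial trifunctional protein, which carries out the later steps on long chains. The genes lie head to head on chromosome 5, Hadha on the minus strand (30323302 to 30360160 of mm39) and Hadhb on the plus strand (30360246 to 30389591), with 85 bases between them in the authors' table. The bases between the 2 genes as annotated by GENCODE M21 on GRCm38 are also 85, whereas the RefSeq starts of the pair lie 272 bases apart. The 85 bases are shown, from RefSeq on GRCm38.p6, because both genes of the pair run outward from this stretch (chr5:30155163-30155247, plus strand). Capitals mark the 9 CG dinucleotides.
Hadha-Hadhb: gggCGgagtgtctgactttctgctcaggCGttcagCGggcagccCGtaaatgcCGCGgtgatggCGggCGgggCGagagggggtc
Hadha was at 747, 1099.8, 595 and 830.4 in KO and at 513, 627, 645 and 824 in WT. Hadhb was at 704, 1023, 1208 and 977 in KO and at 835, 894, 491 and 763 in WT. For both subunits the groups overlapped, with 2 KO values of Hadha and 3 of Hadhb above every WT value. The log2 fold changes were 0.31 (SE 0.34, 95% interval -0.39 to 1.01) for Hadha and 0.40 (SE 0.32, 95% interval -0.27 to 1.07) for Hadhb, and both were positive in each of the 8 omissions of a library. Per kilobase, Hadha lay below Hadhb in all 8 libraries, at 0.251 to 0.670 of its level.

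For shorter chains the same steps are made by separate enzymes, and these were among the most abundant members. Acaa2, the mitochondrial thiolase, had the highest level per kilobase of all members, at 2624, followed by Ucp2 at 2346, Hadh at 1419 and Echs1 at 1067, and the next was Hadhb at 421. The transcript lengths used were 1516 bases for Acaa2 and 3988 bases for Ucp2, and the order of these genes depends on them. Acaa2 was at 4724, 5611, 2146 and 3104 in KO and at 5128, 4093, 3399 and 3617 in WT, so that the highest and lowest values were KO values (log2 fold change -0.14, SE 0.27). Hadh, the short-chain hydroxyacyl-CoA dehydrogenase, was at 3182, 2353, 1982 and 2048 in KO and at 2685, 3069.5, 2666 and 2322 in WT. Its log2 fold change was -0.19 with a 95% interval of -0.66 to 0.29. Echs1, the short-chain hydratase, was at 2671, 1896, 557 and 2182 in KO and at 2236, 1170.5, 1464 and 1119.6 in WT (log2 fold change 0.13, SE 0.39), with KO library 3 below all others.

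Double bonds need auxiliary enzymes, and all 4 members of this kind had negative log2 fold changes. Decr1, the mitochondrial 2,4-dienoyl-CoA reductase (ENSMUSG00000028223, chromosome 4, 15917240 to 15945507), was at 316, 117, 240.3 and 307 in KO and at 653, 401, 427 and 365 in WT. Every KO value was below every WT value, and the groups were separated by the gap from 316 to 365. KO values averaged 245 ± 92.0 and WT values 462 ± 130.1 (SD, 4 libraries per group). The log2 fold change of Decr1 was -0.97 (SE 0.52, 95% interval -2.05 to 0.11, limma adjusted p = 0.770). It ranged from -1.13 without KO library 1 to -0.65 without KO library 2. Eci2, an enoyl-CoA isomerase of peroxisomes and mitochondria, was at 399, 2.20, 308 and 370.2 in KO and at 180.5, 232, 299.9 and 278 in WT. Here 3 KO values lay above every WT value and KO library 2 far below them, so the log2 fold change of -1.15 (SE 1.18) became 0.55 without that library. Ech1, a dienoyl-CoA isomerase, was also lowest in KO library 2, at 177, 0, 158 and 328 in KO and 121, 244, 179 and 55.2 in WT, with -1.25 (SE 1.53) for all libraries and 0.68 without KO library 2. Eci1, the mitochondrial isomerase, was between 0 and 137 in KO libraries and between 0.930 and 98.4 in WT libraries, within a few fragments everywhere.

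Acox3, a peroxisomal acyl-CoA oxidase for branched chains, had the smallest unadjusted p of all members (ENSMUSG00000029098, chromosome 5, 35740384 to 35772696). It was at 304, 864, 817 and 542 in KO and at 1231, 872, 938 and 922 in WT. Every KO value was below every WT value, but KO library 2 at 864 and WT library 2 at 872 nearly met. KO values averaged 632 ± 261 and WT values 991 ± 162 (SD, 4 libraries per group). Its log2 fold change of -0.75 (SE 0.36, 95% interval -1.51 to 0.01, limma adjusted p = 0.750) became -0.43 without KO library 1 and was -0.94 without KO library 2. Acaa1a, a peroxisomal thiolase, was between 266 and 1089 in KO libraries and between 279.99 and 768 in WT libraries (log2 fold change 0.11, SE 0.46). Its reads can be shared with its close paralogue Acaa1b, and with Myd88 on the opposite strand, which shares 1736 bases. In the same way Acadvl shares bases with Dvl2, Echs1 with Paox, Crat with Dolpp1, Ucp2 with Dnajb13 and Etfdh with 4930579G24Rik.

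Thioesterases release fatty acids from coenzyme A. Acot2, the mitochondrial enzyme, was at 0, 1.10, 500.04 and 157 in KO and at 50.7, 439, 108 and 46.2 in WT. KO library 3 was the highest and KO libraries 1 and 2 were the lowest of the 8, and the arithmetic means were close, at 165 ± 236 and 161 ± 188 (SD, n = 4 each). The log2 fold change of -2.36 (SE 1.95) of Acot2 was the most negative among the members, and it was -0.92 without KO library 1 and -1.27 without KO library 2. Reads of Acot2 may be shared with its close paralogues, as may those of Eci2 with Eci3. Acot7, a cytosolic thioesterase, was at 37.0, 1.10, 217 and 264 in KO and 92.1, 167, 161 and 102 in WT, with -1.46 (SE 1.45) for all libraries and 0.03 without KO library 2.

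**Figure D2:**
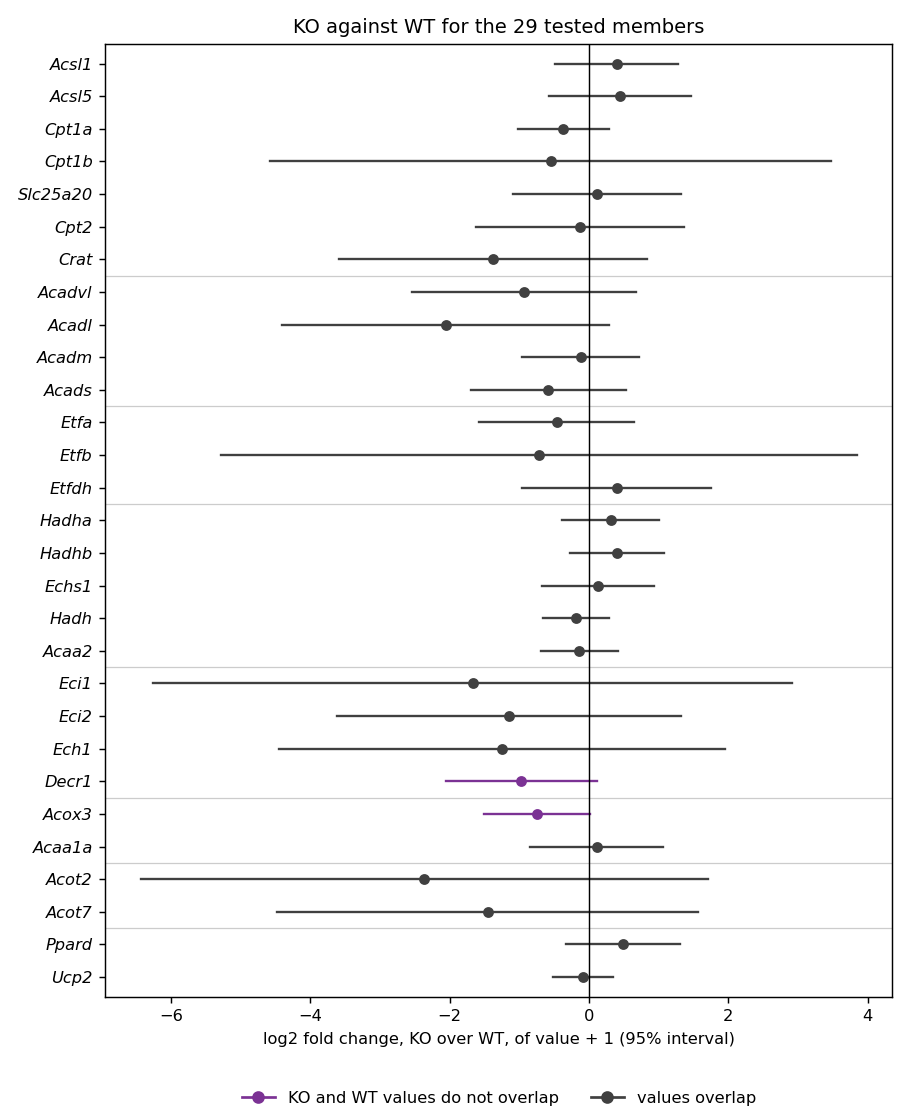
Log2 fold change of KO over WT for the 29 tested members (x axis, of value + 1), with the 95% interval of the limma fit as a bar and genes grouped by role. All 29 intervals include 0, and the 2 members in purple, Decr1 and Acox3, are those in which the KO and WT values do not overlap.

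Among the regulators, Ppard, which codes for the PPAR receptor found in most tissues, was the one detected in every library (ENSMUSG00000002250, chromosome 17, 28451674 to 28520448). It was at 579, 814, 396 and 574 in KO and at 376, 442, 427 and 389 in WT. KO libraries 1, 2 and 4 lay above every WT value and KO library 3 among them. The means were 591 ± 171 and 408 ± 30.9 (SD, n = 4 each), and the log2 fold change of 0.49 had a 95% interval of -0.34 to 1.31 (limma adjusted p = 0.808). It was positive in each of the 8 omissions, at 0.32 to 0.66. Ppargc1a, the coactivator PGC-1alpha, was at 44.6 in WT library 1 and at 0 in the other 7 libraries. Pdk4, a PPAR-induced kinase that turns off pyruvate oxidation, was at 0, 0, 0 and 36.3 in KO and at 1.86, 0, 15.5 and 0 in WT. These 2 genes fell below the minimum mean of 10 and were not tested, and at this depth their RNA was not detectable in most libraries.

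Ucp2, a carrier of the inner mitochondrial membrane that is abundant in immune cells, had the highest normalized value of the members. It was at 8609.8, 9781, 7845 and 9705 in KO and at 12996, 9854, 8592 and 7474 in WT. The WT values enclosed all KO values, and the log2 fold change of -0.09 had a 95% interval of -0.52 to 0.34. With Ucp2 left out, the summed normalized value of the members was 14381 to 19183 in KO and 16272 to 19712 in WT, so the summed levels of the groups overlapped.

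Members differed in how many fragments were estimated to stand behind them. The median of the estimated number of fragments per library was 198 for Ucp2, 73.6 for Acaa2, 47.4 for Hadh and 35.1 for Echs1. It was at least 10 for 11 of the 31 members and under 3 for 7. In KO library 2, 14 of the 31 members were below the worth of 1 fragment and 10 were below 3 reads: Acadl, Eci1, Eci2, Ech1, Etfb, Acot2, Acot7, Cpt1b, Pdk4 and Ppargc1a. In the other 7 libraries 3 to 7 members were below the worth of 1 fragment. Over all genes whose mean elsewhere was 20 to 500, 44.4% were undetected in KO library 2 and 9.06% to 28.8% in the others. The worth of a fragment was estimated from these same shares, so the counts of members below it are not separate evidence.

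**Figure D3:**
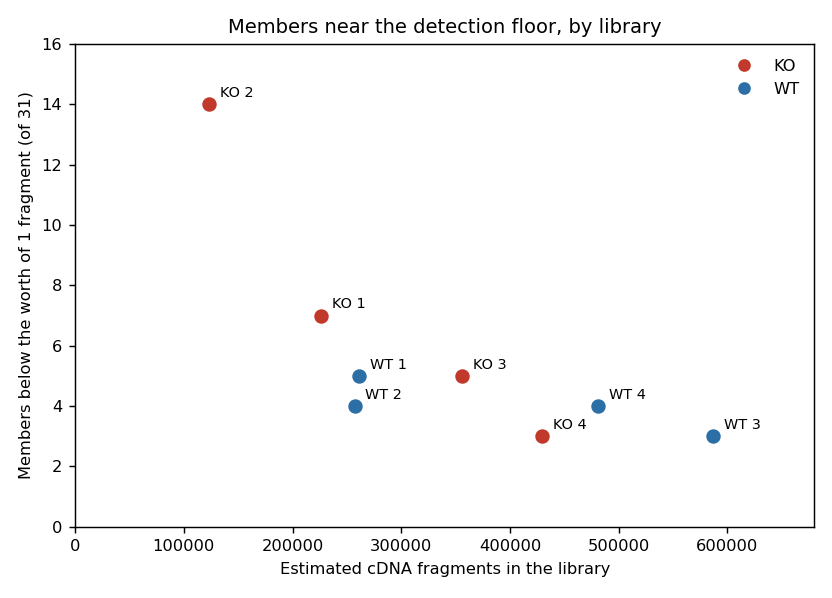
Number of members, of 31, whose value was below that of a single cDNA fragment (y axis), against the estimated number of fragments in the library (x axis), with KO libraries in red and WT libraries in blue. KO library 2, with the fewest fragments, had 14 such members and the other libraries 3 to 7. Both axes rest on the same estimate of the worth of a fragment, so fewer fragments raise the count by construction.

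Log2 fold changes lay further from 0 in members of low level. Of the 10 members with a mean of 10 to 250, 9 had a negative log2 fold change, with a median of -1.09, and in the same range 61.0% of all genes were negative, with a median of -0.49. Of the 15 members with a mean of 250 to 1000, 8 were negative with a median of -0.12, against 54.2% and -0.06 for all genes in that range. The 4 members with a mean of at least 1000 had a median of -0.11, against 0.01 for all such genes. Without KO library 2, 16 of 29 members were negative and their median was -0.09, beside 52.1% and -0.03 for all genes. In 6 members the sign of the change turned when that library was left out: Eci2, Ech1, Etfb, Cpt1b, Slc25a20 and Acot7. Neither the members nor the ranges of level were tested as a set.

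**Figure D4:**
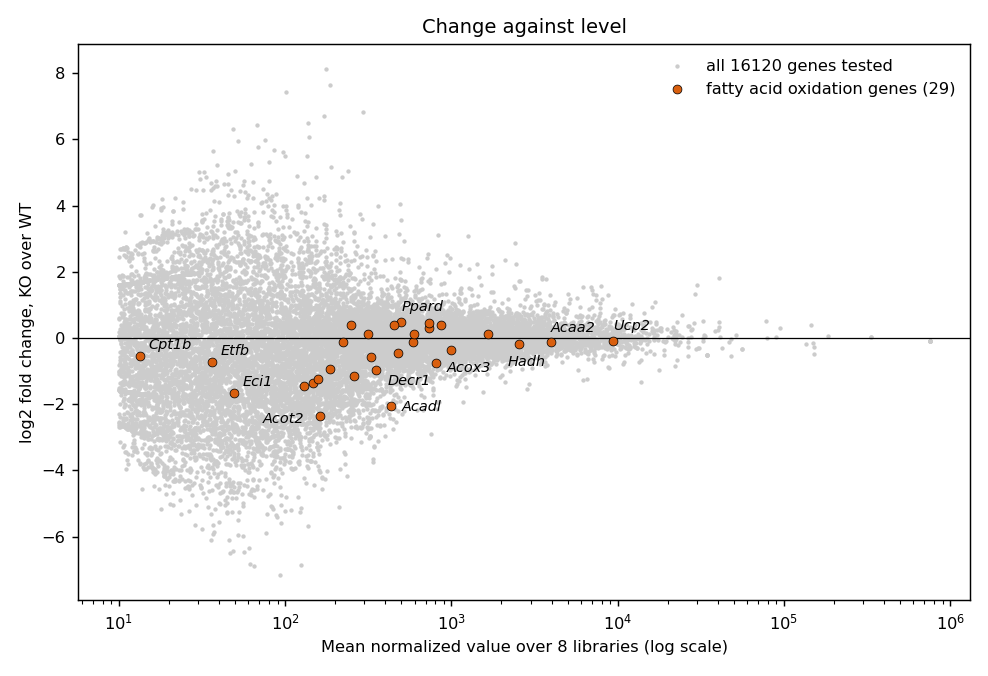
Log2 fold change of KO over WT (y axis) against the mean normalized value over the 8 libraries (x axis, log scale) for the 16120 genes tested in grey and the 29 members in orange. Members with a mean of at least 1000 lie near 0, and the members furthest below 0, Acot2 and Acadl, lie where the grey points also spread widely.

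**Figure D5:**
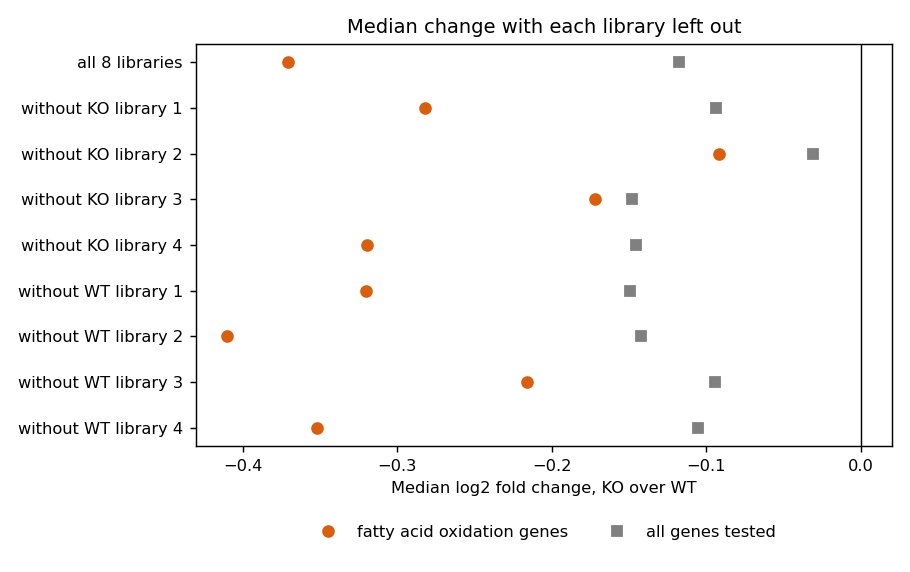
Median log2 fold change of the 29 members (orange circles; 28 without WT library 1) and of all genes tested (grey squares) with all 8 libraries and with each library left out in turn. The members' median stays below that of all genes and is closest to 0, at -0.09, without KO library 2.

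Other genes of fatty acid oxidation outside the 32 gave no call either. Of 49 further oxidation genes 43 were tested, 0 passed the threshold in either direction, and 28 were negative, with a median of -0.44. Acot9, a mitochondrial thioesterase, had a log2 fold change of -2.30 (SE 1.20), with KO library 2 at 2.20. Among 36 tested regulators and PPAR targets, 0 passed and 27 were negative, with a median of -0.14. Vldlr, a lipoprotein receptor, had the smallest p (-1.21, SE 0.42, limma adjusted p = 0.535) with all KO values (319.5 to 503) below all WT values (513 to 1979), and Nrip1, a corepressor of nuclear receptors, was at 0.45 (SE 0.22). At an unadjusted p below 0.05, limma counted 1 gene in each of these lists, both negative, and the one among the regulators and targets was Vldlr.

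Lists for the rest of the organelles were similar in their counts. None of 18 tricarboxylic acid cycle genes passed and 11 were negative, with a median of -0.14. Suclg2, a subunit of the GDP-forming succinyl-CoA ligase, was between 539 and 741 in KO libraries and between 794 and 1215 in WT libraries (log2 fold change -0.74, SE 0.32). Idh2, mitochondrial isocitrate dehydrogenase, was between 374 and 468 in KO libraries and between 571 and 928 in WT libraries (-0.72, SE 0.36). In both, the KO and WT values did not overlap and the limma adjusted p was 0.730 and 0.761. Mitochondrial import and ribosome genes had 16 of 21 negative and a median of -0.16, led by Tomm40 (-3.49, SE 1.81) and Mrps5 (-0.64, SE 0.39). Peroxisome assembly genes had 9 of 17 negative and a median of -0.23, with Pex7 at -2.25 (SE 1.22) and Pex11a at 2.87 (SE 2.23). Of these 3 lists, 0 genes passed by limma over all genes tested, and at an unadjusted p below 0.05 the count was 1 (Suclg2), 0 and 0.

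Macrophage markers had the same sign as most members. All 16 had a negative log2 fold change, with a median of -0.48 and 0 past the limma threshold, and 6 had an unadjusted p below 0.05. Fibroblast markers, 9 of 10 negative with a median of -0.64, summed to 38575 to 60894 in KO and 50951 to 74197 in WT. Most of each sum came from Fn1, at 34540 to 52638 over all libraries, whereas Col1a1 and Col3a1 were highest in KO library 1, at 3946 and 9278. CD8 T cell markers had the other sign, with 11 of 12 positive, a median of 0.74 and 0 past the threshold (4 at an unadjusted p below 0.05 by limma). Of 8 adipocyte markers only Fabp4 was listed, at 0 to 235. Tumour and epithelial markers, of which 6 of 8 were listed, summed to 1219 to 1921 in KO and 828 to 2190 in WT. Among them Epcam was at 0 in 4 libraries and at most 55.8, whereas Cdh1 was at 449 to 1238 over all libraries. In 3 further marker lists the summed levels of the groups did not overlap. Dendritic cell markers summed to 2269 to 3485 in KO against 1083 to 1650 in WT, and B cell markers to 298 to 788 against 99.3 to 278. Red blood cell markers summed to 0 to 1.10 in KO against 101 to 239.7 in WT. Endothelial markers, 4 of 4 negative with a median of -1.50, summed to 650.5 to 1168 in KO and to 736 to 1872 in WT. The part of RNA from these other cell types in the levels of the fatty acid oxidation genes was not tested.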

How the data were processed

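RNA-seq of sorted tumour CD8 T cells, 4 KO and 4 WT libraries, was analysed at gene level. Per the submitters' processing notes, Partek, STAR 2.7.8a and DESeq2 were used with the mm39 build, and the part of each is not stated. The authors deposited 1 table of signal, gene counts scaled by DESeq2 size factors, per its file name and the submitters' processing notes. In each library 81.7% to 88.1% of low values were whole multiples, within 0.02, of the worth of 1 read, so reads could not be restored and count models were left out. Strand is not given in the sources used here, so overlapping genes cannot be told apart.

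Values were fitted as log2(value + 1), without further scaling, with limma 3.58.1 in R 4.3.3 (lmFit, eBayes with an intensity trend) for the 16120 genes with a mean of at least 10. The test was two-sided, and p-values were adjusted by Benjamini-Hochberg over all genes tested, with a threshold of 0.05. The pseudocount draws fold changes of low values toward 0, while a value near 0 in 1 library can move a mean of log2 values far from the ratio of the means. The p-values measure the spread between these libraries. The model was tested on simulated data. Fragments per library were estimated by a Poisson draw from the share of genes undetected (under 3 reads) among those whose mean elsewhere was 20 to 500, small RNAs left out. Levels per kilobase used the principal transcript of GENCODE M21, found for all 31 members, and the longest one where several shared the best rank. Same-numbered KO and WT libraries did not deviate together (correlations of 0.01 to 0.07), so the numbers were not used to pair them.

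The members and lists were chosen with earlier results of these data known. Values in every library are given for the 10 members with the smallest p, the 4 with the highest level per kilobase, the shuttle enzymes and the regulators, with some others added after their values were seen. From the other lists, the 2 genes with the smallest p are named, except 1 that is not reported here. Proteins were not used here. The ranges of level and the minimum mean of 250 were chosen after seeing the data.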

Additional observations from a re-analysis of the deposited data

Results flagged for a closer look

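In 6 of 58 groups of 4 libraries, 2 for each tested member, 1 library stood far from the other 3 on the log2 scale by Dixon's criterion, which chance meets in about 1 in 20 groups. KO library 2 was the low one for Acadl (2.20 against 388 to 457), Eci2 (2.20 against 308 to 399) and Ech1 (0 against 158 to 328). WT library 1 was low for Eci1 (0.930 against 49.7 to 98.4). WT library 2 was low for Etfa (254 against 582 to 670.2) and high for Acsl1 (478 against 348 to 362).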

How the results depend on the processing

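Over 19 alternatives to the fit, of which the minimum mean of 250 was added after seeing the data, no member passed the limma threshold. Of the 29 members, 15 kept their direction in all 19 and 14 reversed in at least 1, 13 of them when a library was left out; 6 reversed without KO library 2. The members' median log2 fold change was -0.41 without WT library 2 and -0.092 without KO library 2, the ends of its range over single omissions, and 16 to 21 members were negative. It was -0.19 with a pseudocount of 10, -0.16 with a minimum mean of 50, -0.17 with sample weights and -0.12 with a minimum mean of 250, where 11 of 19 members were negative. Over single omissions the log2 fold change ranged from -1.29 to 0.0086 for Cpt1b, -0.53 to 0.31 for Cpt2, -0.33 to 0.21 for Acadm, -0.21 to 0.47 for Acaa1a, -0.34 to 0.12 for Acaa2, -1.88 to 0.39 for Etfb, and -1.77 to 0.55 for Eci2. It ranged from -2.11 to 0.68 for Ech1, -0.12 to 0.63 for Echs1, -0.35 to 0.32 for Slc25a20, -2.30 to 0.030 for Acot7, -0.16 to 0.83 for Acsl5 and -0.21 to 0.060 for Ucp2. Etfb was at 0.47 with quantile normalization, and with sample weights Cpt1b was at 0.23, Etfdh at -0.14, Ech1 at 0.22 and Ucp2 at 0.021. The smallest adjusted p of a member, 0.750, was 0.361 with sample weights, and in the other alternatives 0.562 to 0.926.

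Over all genes, 34 were called higher and 4 lower in KO. Single omissions gave 7 to 61 higher and 0 to 9 lower. The counts were 59 higher with a pseudocount of 10, 15 higher and 0 lower with a minimum mean of 50, 7 lower with quantile normalization, 94 higher and 18 lower with sample weights, and 0 lower with a minimum mean of 250. Mtdh stayed at -1.23 but lost its call with a minimum mean of 50 (limma adjusted p = 0.0945) and of 250 (0.0862). It ranged from -1.38 to -1.04 over single omissions, with a limma adjusted p of 0.0247 to 0.241, and lost its call without KO library 2, 3 or 4 and without WT library 1 or 2. The cause was not tested. With the replicate number as a block, Mtdh was at -1.23 (limma adjusted p = 0.0627), and 0 genes were called higher and 0 lower, with 1101 genes at an unadjusted p below 0.05. Same-numbered libraries correlated at 0.0121, 0.0511, 0.0743 and 0.0330 in their deviations. Low correlations cannot show that such libraries share nothing but a number, and whether they were handled together was not tested.

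For 24 of 29 members the 95% interval includes a 2-fold change in at least 1 direction. With sample weights 1 member of 29 was higher and 2 were lower at an unadjusted p below 0.05 by limma, beside 1561 of all 16120 genes in either direction. Whether the width of the intervals comes from the few fragments per library was not tested.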
